A study of Drosophila melanogaster with 2 samples.

Results

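Head-to-head promoter peaks are regions that lie at the shared upstream sequence of 2 neighbouring genes transcribed away from each other. They were taken from the regions that passed the authors' irreproducible discovery rate (IDR) threshold on assembly dm6. A peak was a member when the summit was at most 500 bp from some annotated transcript start, transposable elements left out, and also lay between a pair of protein-coding starts or within 500 bp of both. The starts of such a pair belonged to different genes on opposite strands, pointed apart and were at most 1000 bp from each other. The rule was met by 538 peaks, 6.72% of the IDR list and 22.8% of its 2356 promoter peaks (exact 95% interval 21.2 to 24.6). The list also held 1818 other promoter peaks and 5649 peaks outside promoters. Read as within 500 bp of either start, it took 627 peaks. The members fell on 513 gene pairs when each was given the pair whose midpoint was nearest to the summit. A single gene pair fitted 501 of the members, and 37 fitted several. One summit fitted 21 pairs of annotated genes.

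The samples were whole Drosophila melanogaster pupae of 48 hours and mixed sex, of a transgenic line that carries CG8301 fused to GFP at its C terminus. Both libraries belong to this 1 group, are labelled biological replicates 1 and 2, and have no contrast between conditions. The antibody field names CG8301, a gene for a zinc finger protein, while the description text labels both as an input control, so the peaks are described here as regions of these libraries and not as binding sites of the fused protein. Nothing in the labels names the promoter or the cells that express the fusion, and in whole animals a weak signal in many cells and a strong one in few cannot be told apart. Sequencing depth is unknown, since read counts were not analysed here. Intervals on shares cover counting error only. CG8301 itself had no head-to-head partner within 1000 bp, so its own promoter is not among the members.

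In a compact genome such as that of the fly, many genes start head to head, and the short stretch between them serves both directions. Such pairs often join housekeeping genes, whose promoters tend to lack a canonical TATA box and to carry elements such as the DNA replication-related element (DRE), bound by DREF, or Motif 1, bound by M1BP. Insulator and architectural proteins, among them BEAF-32, Cp190 and Chromator, are known to sit at many of these promoters.

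Sequences under 8 strong summits are shown first, so that the letters behind the base composition and motif counts can be seen. They are not the 8 strongest, since members whose summits lay outside the starts or in annotated exons, and those of 1 chromosome arm, were passed over, among them PNPase/Gprk2, Chro/Ssl1 and tank/CG12194. They are plus-strand sequences from the NCBI reference assembly of the dm6 release, limited to bases between the starts and outside annotated exons, and to 50 bp on either side of the summit. Capitals mark the TATA box letters TATAAA or their reverse complement.
Ugalt/eIF2Bbeta, chrX:2703853-2703930: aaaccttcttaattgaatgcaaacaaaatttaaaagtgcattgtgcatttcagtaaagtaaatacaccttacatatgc
mRpS23/CenG1A, chr2L:13835404-13835504: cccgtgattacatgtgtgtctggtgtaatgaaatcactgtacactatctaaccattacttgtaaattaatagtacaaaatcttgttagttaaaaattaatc
Art3/mRpS10, chr3R:15229485-15229585: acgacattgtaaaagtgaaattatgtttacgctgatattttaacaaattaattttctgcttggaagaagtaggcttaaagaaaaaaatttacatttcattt
Tcs5/CHMP2B, chr3L:5139450-5139550: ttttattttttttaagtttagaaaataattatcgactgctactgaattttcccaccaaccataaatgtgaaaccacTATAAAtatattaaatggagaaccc
eIF4EHP/CG18428, chr3R:24109163-24109263: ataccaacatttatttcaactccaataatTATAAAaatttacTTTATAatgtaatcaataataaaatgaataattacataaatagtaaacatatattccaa
CG3437/CG3552, chr3L:9457746-9457846: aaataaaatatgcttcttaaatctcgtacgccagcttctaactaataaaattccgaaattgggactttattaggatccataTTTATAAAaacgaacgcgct
CG5611/Mtl, chr3R:27636111-27636211: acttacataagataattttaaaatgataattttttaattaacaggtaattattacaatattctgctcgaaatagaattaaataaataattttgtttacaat
CG11309/CG7632, chr3L:21304514-21304608: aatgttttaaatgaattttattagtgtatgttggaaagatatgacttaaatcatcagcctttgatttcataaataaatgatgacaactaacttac
These 8 stretches hold between 15.8% GC, in eIF4EHP/CG18428 and CG5611/Mtl, and 31.7% GC, in CG3437/CG3552. The 2 members of lowest signal are shown as well.
CG32767/CG15465, chrX:5085011-5085111: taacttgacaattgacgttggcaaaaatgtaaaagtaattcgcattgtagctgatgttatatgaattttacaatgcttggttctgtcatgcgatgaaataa
twin/cav, chr3R:24222018-24222118: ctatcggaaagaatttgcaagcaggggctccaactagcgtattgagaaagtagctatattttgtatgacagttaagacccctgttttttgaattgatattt
Their GC content was 31.7% and 36.6%. Over the 20 strongest members, those passed over included, GC content in the 50 bp on either side of the summit ran from 15.8% to 41.6% with a median of 28.7%, a range that holds both.

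The strongest members lay at genes of varied function. The signal value of a peak is the authors' own, on a scale that is not stated, so it ranks peaks within a list. The top member, which was also the top peak of the IDR list (chrX:2703659-2704108, signal 5758), lay between Ugalt, which encodes a UDP-galactose transporter (FBgn0024994), and eIF2Bbeta, a subunit of the exchange factor for initiation factor eIF2 (FBgn0024996). Their assigned starts were 826 bp apart, the summit lay 135 bp from that of Ugalt, and the region ranked 1 in replicate 1 and 2 in replicate 2. The second lay between PNPase, a polynucleotide phosphorylase gene (FBgn0039846), and the receptor kinase gene Gprk2 (FBgn0261988), at chr3R:31404443-31404876 with signal 5250, 94 bp from the start of PNPase and 583 bp from that of Gprk2. Its ranks were 5 and 4 in the replicates. The summits of both lay near 1 gene of a wide pair rather than midway.

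Mitochondrial ribosomal protein genes were in the pairs of 3 of the 20 strongest members. They are 58 of the 5052 genes in head-to-head pairs. Of these 58, 25.9% belonged to a pair with a peak, beside 21.1% of all genes in pairs. The peak of mRpS23 (FBgn0260407) and the Arf GTPase-activating protein gene CenG1A (chr2L:13835256-13835677, signal 4321) ranked 20 in replicate 1 and 6 in replicate 2, with its summit 110 bp from the start of CenG1A and 382 bp from that of mRpS23. The peak of the arginine methyltransferase gene Art3 and mRpS10 (chr3R:15229329-15229742, signal 4054) ranked 34 and 7. Here the starts were 257 bp apart and the summit was 127 bp from Art3 and 130 bp from mRpS10, almost exactly midway. The peak of mRpL41 and CG8079 had signal 3464 and ranks of 69 and 17. All 3 ranked higher in replicate 2 than in replicate 1, as did most members.

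Chro, which encodes the chromodomain protein Chromator of polytene interbands, shares its upstream sequence with Ssl1, a TFIIH subunit gene (chr3L:22878691-22879133, signal 4210, ranks 22 and 8). Its starts were 321 bp apart. The peak of Tcs5 and CHMP2B, a gene of the membrane-remodelling ESCRT-III complex, had signal 3566 and ranks of 41 and 19, and that of CG18428 and eIF4EHP, a cap-binding repressor of translation, had signal 3438 and ranks of 26 and 30. Further members among the 20 strongest lay at Pal1, which encodes a peptide-amidating lyase, at the Rac-like GTPase gene Mtl, at the F-box gene Fbw5, at the peroxisome division gene Pex11ab and at Pyroxd1. Many other genes of these pairs carry only CG identifiers in the annotation. Over these 20 pairs the starts were 33 to 826 bp apart with a median of 334 bp, 17 summits lay between the starts, and no rank was below 310 in replicate 1 or 78 in replicate 2.

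**Figure D1:**
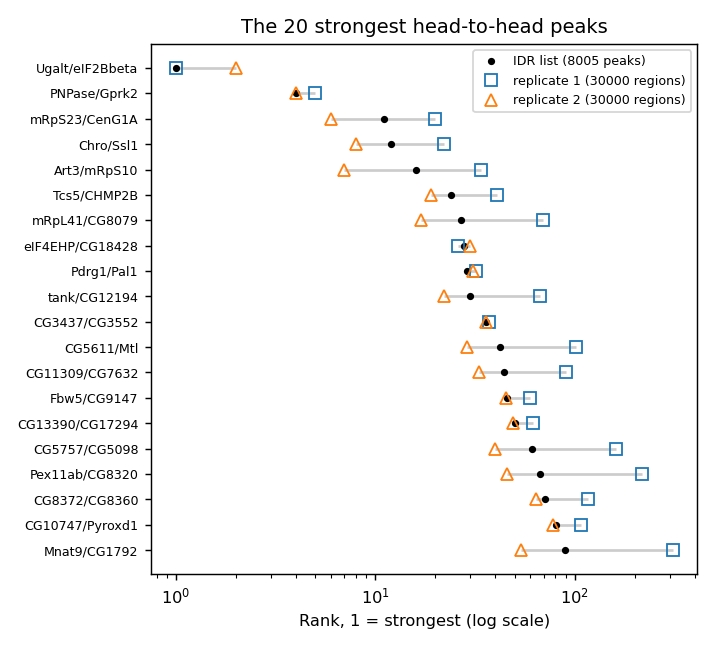
Rank of the 20 strongest head-to-head peaks (rows, minus-strand gene before plus-strand gene) in the IDR list and in the 2 replicate lists, on a log axis where 1 is the strongest. Ranks reach 310 in replicate 1 (Mnat9/CG1792) and 78 in replicate 2 (CG10747/Pyroxd1).

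The weakest members sat at the edge of the IDR list. The lowest signal was 143 for CG32767/CG15465, followed by the peak of the deadenylase gene twin and the telomere capping gene cav at 144. The next 3, at D19B/CG43293, at CG3104 and the ribosomal protein gene RpS21, and at Scsalpha2 and the dystrophin gene Dys, had signals of 144 to 145. That at D19B/CG43293 is a further summit of a region whose other summit is a member with signal 611. The strongest head-to-head region outside the IDR list, at Rox8/CG5986, had signal 142 and rank 8071 in the pooled list. At the limit on distance, the members with the widest pairs were hts/CalpA with 999 bp and signal 159, Gnpat/CG5112 with 994 bp and signal 399, CG32767/CG15465 with 991 bp, ND-75/CG1632 with 983 bp and signal 1156, and Pax/Lectin-galC1 with 977 bp and signal 477. Just outside it lay nero/CG1910 with 1001 bp and signal 283, raptor/Nep1 with 1004 bp and signal 292, and the stronger Eno/Rrp40 with 1015 bp and signal 1454.

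Members stood somewhat higher in the IDR list than other promoter peaks, but this was not so in every list. Their median rank percentile, on which 100 is the strongest peak, was 58.4 (quartiles 32.0 and 83.3), against 52.9 for the 1818 other promoter peaks and 48.1 for peaks outside promoters. The strongest 25% of the IDR list held 181 members, 9.04% of its peaks, and the weakest 25% held 93, or 4.65%. In the strongest regions of replicate 1, a list shortened to the length of the IDR list, the medians were 50.6 for members and 50.7 for other promoter peaks, and in those of replicate 2 they were 61.5 and 53.4. With the wider reading of the rule, which adds summits on the gene side of a start, they were 53.6 and 54.2, and among the strongest 50% of IDR peaks 79.3 and 79.2. The difference was not tested.

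In the authors' pooled list of 30000 regions, 1076 lay at head-to-head promoters by the same rule and 538 of them were in the IDR list. This share of 50% (exact 95% interval 47.0 to 53.0) stands beside 26.7% of all pooled regions, 31.0% of other promoter regions and 24.5% of regions outside promoters. The IDR list is made of the pooled regions of highest signal, so this is a statement on signal rank in the pooled list. The wider reading gave 41.2% of 1520 regions.

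The replicates differed in how they ranked the members. Of the members, 377 (70.1%, exact 95% interval 66.0 to 73.9) matched regions of both replicates when each replicate list was shortened to its strongest regions at the length of the IDR list, against 77.8% of all IDR peaks and 78.1% of other promoter peaks. The list of replicate 1, so shortened, held 79.9% of the members and that of replicate 2 held 87.5%. Other promoter peaks had 89.3% and 87.6%. Members that are summits of 1 region match the same replicate regions, as both at Brf/sds22 do. The weak further summit at D19B/CG43293 counts as matched in this way. Such members are counted separately and are not independent. Of the 479 members with a region in both whole lists, 366 (76.4%) stood at a higher percentile in replicate 2 and 112 in replicate 1. Among 1722 other promoter peaks the counts were 835 (48.5%) and 884, and among 5485 peaks outside promoters 3145 (57.3%) and 2335. The median shift toward replicate 2 was 2.60 percentile points in members and -0.09 in other promoter peaks. With 1 library per replicate a cause in the library and one in the animals cannot be told apart, and no test of this difference was made.

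**Figure D2:**
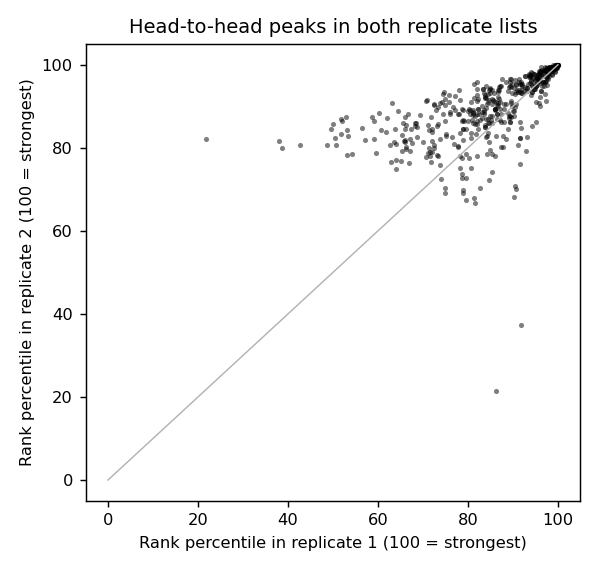
Each point is 1 of the 479 head-to-head peaks with a region in both whole replicate lists, placed by its rank percentile among 30000 regions in replicate 1 (x axis) and replicate 2 (y axis). The grey line marks equal percentiles, and 366 points lie above it and 112 below.

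Although members ranked higher in replicate 2, some were missing from that list altogether. No region of the 30000 in replicate 2 overlapped 50 members (9.29%, exact 95% interval 6.98 to 12.1), against 63 of the other promoter peaks (3.47%, interval 2.67 to 4.41) and 61 of the peaks outside promoters (1.08%, interval 0.827 to 1.38). In replicate 1 the missing shares were 1.67% of members, 1.82% of other promoter peaks and 1.84% of peaks outside promoters. The absent members were not only the weakest. The peak of CG11723 and the tubulin-folding cofactor gene Tbcd (chr2L:2147276-2147617) had signal 1071 and rank 960 in replicate 1, and the nearest summit in the replicate 2 list was 14645 bp away.

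Other strong members were missing in the same way. The peak at Gmd, a gene of GDP-fucose synthesis, and CG3792 had rank 1096 in replicate 1, and the nearest replicate 2 summit was 4304 bp away. Those at Rrp1, a DNA repair gene, and gammaTub23C, a gamma-tubulin gene, and at the splicing factor gene U2af50 and PIG-Q had signals of 805 and 740. Among these 50 members, 36 belonged to the strongest regions of replicate 1 in this sense, their median GC content at the summit was 28.2% against 28.7% for the members listed in replicate 2, and 18.0% against 30.5% held TATAAA at the summit. For replicate 1 the TATAAA shares lay the other way, with 4 of the 9 absent members (44.4%) against 29.1% of those listed. Median GC content there was 21.8% in absent and 28.7% in listed members. The strongest of these 9 was that of the chromatin remodeller gene Ino80 and Aptx (chr3R:19403061-19403421, signal 897, rank 556 in replicate 2). Why regions are missing from a list was not tested.

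Where both replicates listed a member, their summits lay close together. This is partly fixed by the matching, which took only replicate regions that overlap the peak. The summits of the 2 lists lay a median of 23 bp apart and within 50 bp of each other for 76.8% of the 479 members, against 25 bp and 74.6% for other promoter peaks. Spearman's rho of the signal values of the replicates was 0.81 over the 479 members, 0.81 over the other promoter peaks and 0.80 over 7686 IDR peaks. These correlations are across peaks of the same pair of libraries, which share their control file and from which the IDR list was made. Members that are summits of 1 region enter them with the same replicate values.

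The annotation held 2667 head-to-head gene pairs with starts at most 1000 bp apart, with 5052 of 13945 protein-coding genes (36.2%). By the rule 570 pairs had a peak, which is 21.4% (exact 95% interval 19.8 to 23.0). The summit that fitted 21 pairs, assigned to pre-mod(mdg4)-C/pre-mod(mdg4)-Y, counts once for each of them. The intervals on shares of pairs treat these pairs as independent, which they are not. Of the genes in pairs, 21.1% belonged to a pair with a peak, while 12.1% of the 8893 genes without such a partner had a summit within 500 bp of a start. The stretch that can take a summit differs between a pair of starts and a single start, so these shares are not on equal terms. By the measure used for genes without a partner, 23.4% of the genes in pairs had a summit within 500 bp of a start. In the pooled list 938 pairs (35.2%) had a region, so most pairs had none.

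Pairs with starts 200 to 400 bp apart had peaks most often. The share with a peak was 26.6% of 542 pairs with starts over 200 and up to 300 bp apart (exact 95% interval 22.9 to 30.5) and 30.8% of 400 pairs over 300 and up to 400 bp (26.3 to 35.5). It was 18.9% up to 100 bp, 16.0% over 100 and up to 200 bp (12.3 to 20.2) and 17.6% over 400 and up to 500 bp (13.2 to 22.7). In wider pairs it was 15.5% to 19.2%. The shares do not rise steadily with distance. By the rule, the stretch that can take a summit shrinks as the distance grows up to 500 bp and widens beyond that. The differences between distances were not tested.

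**Figure D3:**
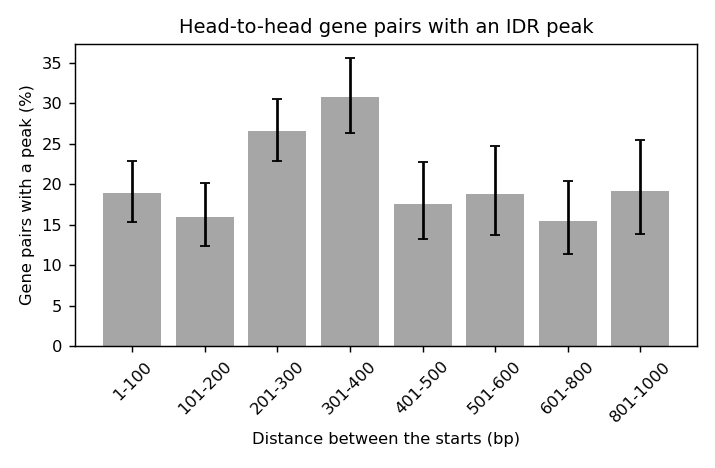
Percent of annotated head-to-head gene pairs with an IDR peak by the rule (bars, from 0) in classes of distance between their closest starts, with exact 95% binomial intervals as error bars. Pairs in the classes up to 300 bp (26.6%) and up to 400 bp (30.8%) stand above the other classes (15.5% to 19.2%).

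The place of the summit within a pair differed with the distance between the starts. Of the members, 488 (90.7%) had the summit between the starts, with a median distance of 126 bp to the nearer start and 244 bp to the farther. This share is partly fixed by the rule. With starts over 500 bp apart the rule admits only summits between them, and with starts up to 100 bp apart mostly positions outside. The assignment of each summit to the pair with the nearest midpoint also favours positions between the starts. With only the outermost start of each gene the share between was 75.4% of 447 peaks. The classes here use the starts assigned to each member, which need not be the closest starts of the gene pair used for the shares above. In the closest assigned pairs, up to 100 bp, only 3 of 22 summits lay between the starts, and the median distance to the midpoint was 116 bp. Over 100 and up to 200 bp, 13 of 22 lay between them, with a median of 41.3 bp to the midpoint. For pairs over 200 and up to 300 bp, 134 of 142 lay between them, and the median distance from the summit to the midpoint was 20.5 bp and to the nearer start 105 bp. For pairs over 800 bp these medians were 266 bp and 196 bp. The distance to the nearer start thus ran from 105 to 196 bp over the classes above 200 bp.

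Neither strand was favoured, with 257 summits nearer to the minus-strand start, 277 nearer to the plus-strand start and 4 at equal distance. Of the 488 summits between starts, 298 (61.1%) lay in the central one of 3 equal parts of the distance. The 50 members with the summit outside had a median distance of 148 bp between starts. They include the narrowest pairs, CG9588 and the kinase gene Lkb1 with 8 bp (signal 404), p38a/CG6178 with 26 bp (signal 239), Pex11ab/CG8320 with 33 bp (signal 2574), Trmt6/Ent2 with 36 bp (signal 1455) and CG4741/Adck1 with 38 bp (signal 1335). At these pairs the summit lay 92 to 372 bp from the nearer start, on the transcribed side of it. Annotated exons held the summits of 124 members (23.0%).

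**Figure D4:**
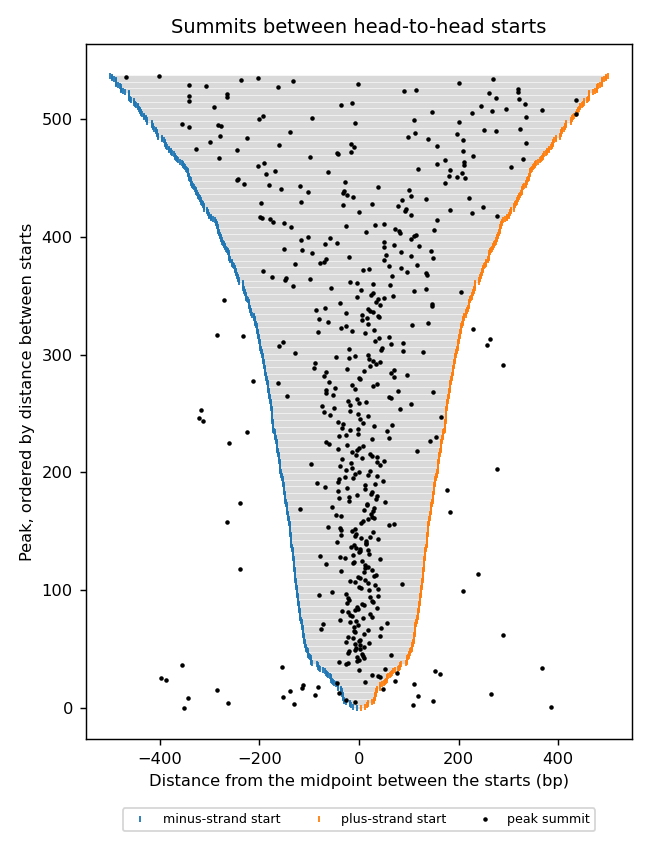
The 538 head-to-head peaks, ordered from the narrowest pair (bottom) to the widest (top), with the distance in bp from the midpoint between the starts on the x axis. Black points are summits, and blue and orange ticks are the minus-strand and plus-strand starts; 488 summits lie between the ticks.

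Of the gene pairs, 25 were assigned 2 or more members. The pair of the elongator gene Elp6 and the dicarboxylate carrier gene Dic1 had peaks of signal 1854 and 525 at different annotated starts. The kinase gene p38a and CG6178 had peaks of signal 1775 and 239, also at different starts. Brf, a gene of the RNA polymerase III initiation machinery, and sds22 had signals of 862 and 599 within 1 region, the former between the starts and the latter beyond that of sds22. Ank2 and Mcad, an acyl-CoA dehydrogenase gene, had peaks of signal 1556 and 210 within 1 broad region of 1311 bp. The adenylate cyclase gene Ac78C and the microtubule gene chb had signals of 699 and 441 near their respective starts, 923 bp apart. The former peak, 120 bp from the start of Ac78C, had no region in replicate 1, and the latter, 186 bp from that of chb, ranked 4558 there.

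Members were found on all 5 large chromosome arms. Members numbered 111 on 2L, 91 on 2R, 121 on 3L, 141 on 3R and 74 on X, and pairs with a peak made up 22.0%, 17.9%, 23.9%, 24.2% and 17.9% of the pairs there. The summit that fitted 21 pairs is on 3R, where 165 pairs with a peak stand beside the 141 members. The share of 24.2% there counts this summit 21 times. Chromosome 4 had 11 pairs and no member. Members on X had the lowest median percentile of the arms, 49.3, and those on 3L the highest, 62.7.

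Summits of members lay in AT-rich sequence with GC-rich surroundings. In windows of 21 bp the mean GC content was 30.5% at the summit and 48.5% and 47.4% at 500 bp to either side. For other promoter peaks it was 33.7% at the summit and 42.9% and 43.0% at 500 bp, and for peaks outside promoters 30.8%, 42.9% and 42.9%. In the 50 bp on either side of the summit the median GC content of members was 28.7% (quartiles 23.8 and 35.6), and it was 26.7% in the strongest 25% of them and 33.7% in the weakest 25%. A dip of this kind at the summit was thus present in all 3 classes. At 500 bp from a member's summit the sequence mostly belongs to 1 of the 2 genes.

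**Figure D5:**
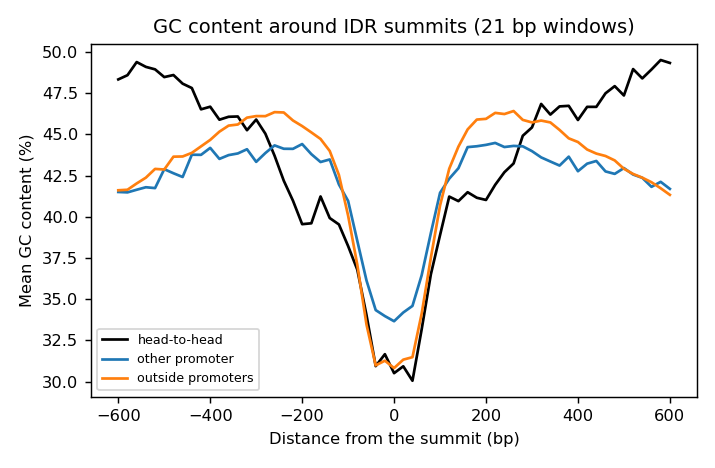
Mean GC content in 21 bp windows (y axis, percent) against the distance from the summit in bp (x axis) for head-to-head peaks (black), other promoter peaks (blue) and peaks outside promoters (orange). At the summit head-to-head peaks have 30.5% GC, and 500 bp away they have 47.4% to 48.5%, above the other classes.

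Pairs with and without a peak had nearly the same overall GC content. In the 150 bp on either side of the midpoint the medians were 34.6% in pairs with a peak and 34.9% in pairs without. In 5 equal classes of GC content the share of pairs with a peak was 19.4% in the most AT-rich class, 24.7%, 25.7% and 22.8% in the next 3, and 13.9% (exact 95% interval 11.0 to 17.2) in the most GC-rich class, at 41.5% GC and above. The GC-rich pairs thus had the fewest peaks, and the most AT-rich pairs did not have the most.

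The 28 motifs were searched on both strands in the 50 bp on either side of the summit and in flanks of the same length centred 500 bp away. The only 3 in at least 5% of summits were the TATA box letters, the BEAF-32 core and the initiator letters. TATAAA was found in 158 members (29.4%, exact 95% interval 25.5 to 33.4) against 6.32% of the flanks, 21.1% of other promoter peaks, 24.2% of peaks outside promoters and 18.7% of 19253 windows of that length centred 150 bp upstream of all coding starts. Its share was 36.3% in the strongest 25% of members and 21.6% in the weakest 25%, and their GC content rose in that order. What part base composition has in this was not tested. Of its 206 occurrences none began 20 to 40 bp upstream of the assigned start it points to, the place of a canonical TATA box. Only 78 members had a start within 90 bp on the gap side, so few could have shown one.

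CGATA, the core of BEAF-32 sites, was in 88 members (16.4%, exact 95% interval 13.3 to 19.8), 11.4% of flanks, 11.3% of other promoter peaks and 14.8% of the windows upstream of all coding starts. It was more frequent in the weaker members than in the stronger. By classes of 25% from the strongest, the shares were 11.1%, 11.2%, 21.5% and 21.6%. The initiator letters TCAGTT were in 5.39% of members, 4.74% of flanks, 6.99% of other promoter peaks and 6.68% of the upstream windows. For this motif summit and flank were close.

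Elements known from housekeeping promoters were rare at the summits themselves. The DRE, TATCGATA, which contains CGATA, was in 9 members (1.67%, exact 95% interval 0.768 to 3.15), against 0.279% of flanks, 0.440% of other promoter peaks and 1.04% of the upstream windows. None of the 9 was in the strongest 25% of members. Motif 1, searched as GGTCACAC, was in 3 members (0.558%), 0.372% of flanks and 0.649% of the upstream windows. In the 150 bp on either side of the midpoint of pairs, the DRE was in 10.7% of pairs with a peak (interval 8.29 to 13.5) and 14.1% of pairs without (12.6 to 15.6), and Motif 1 in 8.07% and 10.1%. Most pairs of either kind had neither within that window.

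Members with a DRE at the summit included the strongest of them at the chitinase gene Cht11 and CG4558, and 3 at ribosomal protein genes, RpL34a, RpS25 and RpL19. Sequence is shown for 3 of the 9 to place the element, in capitals, relative to the starts.
Cht11/CG4558, chrX:6849680-6849769: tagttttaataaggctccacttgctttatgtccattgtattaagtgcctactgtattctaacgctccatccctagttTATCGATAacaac
RpL34a/Trmt61, chr3R:26059268-26059360: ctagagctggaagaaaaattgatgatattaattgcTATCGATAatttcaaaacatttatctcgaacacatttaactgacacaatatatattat
bmm/Tdrd3, chr3L:14786528-14786628: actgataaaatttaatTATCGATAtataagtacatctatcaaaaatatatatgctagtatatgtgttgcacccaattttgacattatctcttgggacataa
The first has signal 541, the second 344 and the third, at the lipase gene bmm, 284. All 3 fall outside the strongest 25% of members.

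The words of 8 bases found in at least 3% of members were rich in A and T. Of these 219 words, 117 held only A and T, the other 102 held at least 1 G or C, and none held 4 or more. The highest ratio was that of TAAAATTA, in 31 members (5.76%), 0.186% of flanks and 3.08% of other promoter peaks. AAAAACTT was in 3.72% of members against 0.186% of flanks, AGTTATTA in 3.16% against 0.186%, ATTTTATA in 6.13% against 0.372%, and ATAAAATA in 9.11% against 0.558%. All 5 were also in other promoter peaks, in 0.935% to 5.28% of them. These words were picked from the same peaks and are a description without a test.

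Several gene families of basic cell function lie largely in head-to-head pairs, and peaks were found in most of them. Of 73 mitochondrial ribosomal protein genes, 58 had a head-to-head partner and 15 of these (25.9%) belonged to a pair with a peak, beside 21.1% of all genes in pairs. None of the 15 mitochondrial ribosomal protein genes without a partner had a promoter peak. Cytoplasmic ribosomal protein genes had a peak in 21 of 56 in pairs (37.5%) and in 11 of 37 without a partner (29.7%, beside 12.1% of all such genes). Their peaks were of middling strength, the strongest being in the pairs of RpS28b (signal 673), RpL32 (643), RpS20 (611) and RpL7 (369). In the pair of RpS28b the summit lay 789 bp from its start and 173 bp from that of the partner l(1)G0320. Oxidative phosphorylation subunits had 10 of 47 (21.3%), led by the complex I genes ND-ASHI (signal 1658), ND-75 (1156), ND-MWFE (927) and ND-SGDH (310), and 1 of 46 without a partner. In the pair of ND-75 the summit lay 760 bp from its start and 223 bp from that of the partner CG1632.

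Among other organelle genes, peroxins, the proteins that build peroxisomes, had a peak in 7 of 12 in pairs (58.3%) and in 1 of 3 without a partner. The strongest was Pex11ab (signal 2574), followed by Pex6 (675), which shares its pair with the TFIID subunit gene Taf5, Pex10 (371), and Pex16, whose partner is Pex14 (299). Genes of autophagy had 5 of 16 (31.2%), led by Atg2 (signal 810), Atg17 (803), Atg7 (524) and Atg18a (511), and Atg7 shares its pair with the exocyst gene Sec6. The vesicle transport list had 9 of 41 (22.0%), with Vps33B (signal 1397) the strongest and Snap29 (498) and Sec61alpha (470) among the next. Mitochondrial import genes had 2 of 6, Tom7 (signal 697) and Tim10 (240). The vacuolar ATPase had 1 of 14, Vha100-2 (signal 1790), and the Rab list 4 of 17, of which Rab3GAP1 (signal 354) is a regulator of a Rab and not a GTPase, and Rab39 (273), Rab7 (163) and Rab18 (159) are.

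Genes of transcription were near the background share of 21.1%. Mediator subunits had 5 of 19 (26.3%), led by MED30 (signal 790), MED15 (756), MED17 (598) and MED31 (541). In the pair of MED15 the summit lay 546 bp from its start and 267 bp from that of the partner CG4297. General factors had 4 of 17 (23.5%), Taf2 (signal 724), Taf5 (675), TfIIA-L (393) and the elongation factor gene TfIIS (171). RNA polymerase subunits had 5 of 20, with Polr3E (signal 1012), Polr2H (626), Polr3F (206) and Polr2I (203), the last paired with the insulator gene su(Hw). Of the insulator and architectural protein genes 5 of 14 (35.7%) had a peak. These were Chro, Cp190 (signal 1870), Nup98-96 (454), Dref (298) and su(Hw), so the genes for Chromator, Cp190 and DREF each had 1 at their own start.

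Genes of RNA and protein metabolism had similar shares, with some low ones. The translation initiation factor list had 5 of 21 (23.8%), among them eIF3h (signal 599) and eIF5B (398) besides the 2 named above. Aminoacyl-tRNA synthetases had 4 of 24 (16.7%), SerRS (signal 806), GluProRS (596), ThrRS (502) and AspRS (339). Splicing factors had 5 of 29 (17.2%), with U2af50, Prp31 (signal 377), Prp16 (286) and snRNP-U1-C (269). The list of exosome and rRNA processing genes had 3 of 17, of which Rrp1 is a repair endonuclease gene taken in by its name, and fbl (signal 352), known as fumble, encodes a pantothenate kinase. Nopp140 (274) is the other one. Proteasome subunits had 3 of 26 (11.5%), Rpn3 (signal 470), Rpn5 (364) and Rpn13 (224), and nucleoporins 1 of 18, Nup98-96.

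Replication genes had 3 of 17 (17.6%), of which RPA1 and Mcm2 share 1 peak (chr3R:8264549-8264973, signal 392) and PCNA2 (155) has another. DNA polymerases had 0 of 8, chaperones 3 of 18, namely Hsc70-5 (signal 1063), DnaJ-H (634) and CCT5 (163), and ubiquitin-conjugating enzymes 1 of 5, eff (162). Without a partner, 1 of 3 DNA polymerase genes, 5 of 20 chaperone genes and 2 of 7 ubiquitin-conjugating enzyme genes had a promoter peak. Gene families of specialised tissues lay apart in their arrangement. Only 12 of 121 cuticle protein genes and 26 of 179 chemosensory receptor genes had a head-to-head partner, and none of these had a peak. Without a partner, 2 of 109 and 2 of 153 had one. Replication genes apart, the lists of this paragraph had the higher share without a partner, and all other lists had the lower. These shares are not on equal terms. A gene in a pair counted for any peak of its pair, also one over 500 bp from its own start. A gene without a partner counted only for a summit within 500 bp. Some differences were small, as for splicing factors with 17.2% in pairs and 16.7% without a partner. Genes of a pair share a peak, so members of a list are not independent, and no list was tested.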

How the data were processed

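Chromatin immunoprecipitation sequencing libraries of 2 replicates of 1 group were compared as region lists. Per the deposited text files, the authors derived a list of 30000 regions, peaks and background, from each replicate's alignments and a control file, a pooled list of 30000 from both, and an IDR list from these, with caller, aligner and threshold not given in the sources used here. Signal values are the authors' own. The deposited −log10 q-values share 1 top value over all IDR peaks and were not used. Starts came from Ensembl release 115 and sequence from the NCBI assembly, both of the dm6 release, with coordinates from 1. The IDR list equals the strongest regions of the pooled list. Matching needed an overlap of at least 1 bp, and the strongest overlapping region counted. Python 3.11.15, pandas 2.3.3 and scipy 1.17.1 were used. The peak assignment was checked on made-up starts.

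With 1 group no test was made; intervals are exact binomial at 95%. The members, 25 gene lists (by symbol pattern) and 28 motifs were chosen with earlier results of these data known. Named are the 20 strongest members found in both replicates, CG8301, the 5 narrowest, widest and weakest, up to 4 genes a list, 3 motifs, 5 words and 5 pairs with several members; other items were chosen after their values were seen. Alternatives were other distances, windows, readings, overlaps, the strongest 50% of peaks and each replicate alone. The control experiment was not analysed here.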

Additional observations from a re-analysis of the deposited data

How the results depend on the processing

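The share of promoter peaks that were members, 22.8%, was 16.9%, 10.8% and 30.3% with starts at most 500, 300 and 2000 bp apart, 31.1% and 19.8% with windows of 250 and 1000 bp, 26.6% with the wider reading, 24.9% among the strongest 50% of peaks, and 20.4% to 24.0% with either replicate alone. The share of summits between the starts, 90.7%, was 83.7% and 64.2% with at most 500 and 300 bp, 75.4% with outermost starts, 77.8% with the wider reading and 84.5% to 91.7% with either replicate alone. The median percentile, 58.4, was 50.6 to 61.5 with either replicate alone, and without replicate 2 it no longer stood above that of other promoter peaks, nor did it with the wider reading, and among the strongest 50% of IDR peaks the medians were 79.3 and 79.2. The share in both replicates, 70.1%, was 63.4% with an overlap of 50%, 65.2% with summits within 100 bp and 91.8% among the strongest 50% of peaks. The share of pairs with a peak, 21.4%, was 13.5% among those peaks and 20.96% to 22.0% with either replicate alone. The share of pooled regions in the IDR list, 50%, was 55.6% with a window of 250 bp and 41.2% with the wider reading. Motif shares follow the window by construction: with 25 and 100 bp on either side of the summit they were 13.6% and 46.5% for TATAAA, 8.92% and 34.2% for CGATA, and 2.97% and 9.85% for TCAGTT. Among the strongest 50% of peaks TATAAA was at 34.3% and CGATA at 13.2%. With either replicate alone the ranges were 28.5% to 29.7%, 15.3% to 16.7% and 5.14% to 5.21%. For the other changes the cause was not tested. No paired analysis was possible because there is 1 group. Depth is unknown, so which weak regions were beyond detection cannot be said.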
